A study of Drosophila melanogaster with 6 samples.

Results

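The genes described here encode the chemoreceptors of the fruit fly Drosophila melanogaster, namely the odorant receptors (Or genes with their co-receptor Orco), the gustatory receptors (Gr genes) and the ionotropic receptors (Ir genes). They were chosen by name, as array probe sets whose annotation gives exactly 1 symbol of these families, with the probe set of highest mean kept for each gene. This gave 166 genes of the 11982 genes with such a probe set, made up of 57 odorant, 56 gustatory and 53 ionotropic receptor genes. A further 20 receptor genes of the RefSeq gene table (assembly Release 6 plus ISO1 MT) had no probe set naming them alone, and 5 probe sets that name several genes, among them those of Or19a with Or19b and of Gr64b with Gr64c, were left out.

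RNA came from heads of female flies kept at 25 °C and was hybridised to 6 Affymetrix oligonucleotide arrays. The samples were a control strain at ZT3 (2 arrays), the same at ZT15 (2 arrays), and flies whose RNAi label reads Tim-Fbl at the same ZT3 and ZT15 (1 array for each hour), where ZT is the hour counted from lights-on. Age, the genotype of the control, the driver of the RNAi and the number of heads per sample are not given in the sources used here, nor is it said whether replicates came from separate cultures, so the p-values cover the spread among these arrays alone, which may be technical. Signals are log2 values.

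Odorant receptors are ion channels that pair a tuning subunit with Orco in the sensory neurons of the antenna and maxillary palp. Gustatory receptors act mostly in taste neurons, for sugars and bitter compounds, while some of the family detect carbon dioxide. Ionotropic receptors are relatives of glutamate receptors that detect acids, amines, temperature and humidity. They need co-receptors such as Ir8a, Ir25a, Ir76b and Ir93a. Most tuning receptors are made in a small group of sensory neurons, so whole heads hold few cells that carry any given receptor. In whole heads, fewer cells of a type and less RNA per cell cannot be told apart.

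The label of the Tim-Fbl strain was checked first on fbl, the pantothenate kinase gene whose symbol it holds. Its signal was 9.28, 9.26, 9.27 and 9.11 on the control arrays (ZT3, then ZT15) against 7.47 (ZT3) and 7.49 (ZT15) in Tim-Fbl, so it fell by 1.75 on the log2 scale in Tim-Fbl (limma adjusted p = 5.57e-05). Markers of head tissues were present, with a mean signal per array of 12.9 to 13.1 over 5 photoreceptor markers and of 7.82 to 8.29 over 4 neuron markers. The 8 measured antennal markers, mostly odorant-binding protein genes, had means of 4.55 to 4.96. Over all probe sets the array medians lay between 5.46 and 5.51 and the lower quartiles between 3.99 and 4.16, and signals near or under the lower quartile lie close to the floor of the measurement.

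Most chemoreceptor genes gave signals at the low end of the arrays. Only 11 of 166 genes (6.63%) had a mean log2 over 5, against 55.8% of the 18769 probe sets tested. The median gene mean was 3.85, with a range of 2.86 to 7.69, and 92 genes lay under the lower quartile on all 6 arrays. A set of 160 genes lay under the array median on all 6 arrays and 3 lay above it on all 6, which are Ir76a, Ir8a and Ir25a. None of the 56 gustatory receptor genes had a mean over 5, and the family's range of means was 3.14 to 4.98. The threshold falls between Or65c, a receptor gene of antennal trichoid sensilla, at 5.0001, and Gr93a, a receptor gene needed for caffeine taste, at 4.98. Because the signals of different probe sets depend on their probes, these positions do not rank the genes by transcript level.

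**Figure D1:**
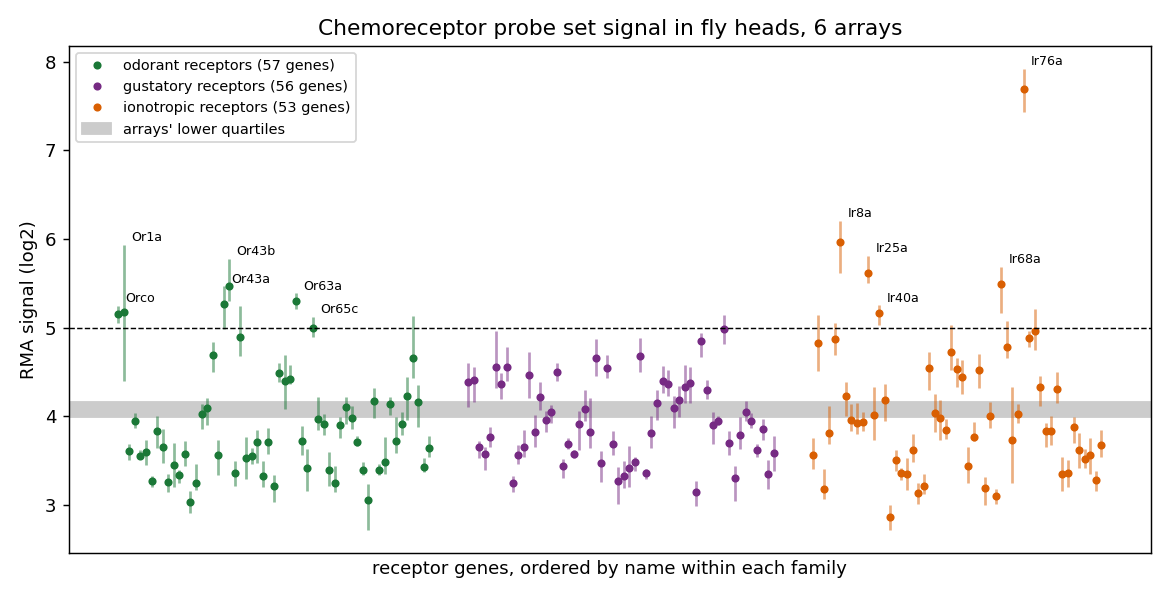
Signal of each of the 166 receptor genes on a log2 scale (points, mean of 6 arrays; vertical lines, lowest to highest array), by family and ordered by name. The dashed line marks a mean of 5, exceeded by 11 genes, and the grey band the arrays' lower quartiles of 3.99 to 4.16.

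The 11 genes over 5 were 5 ionotropic and 6 odorant receptor genes. The co-receptors made up 3 of them. Ir8a, co-receptor of the acid-sensing ionotropic receptors, was at 6.13 and 6.20 on the control ZT3 arrays, 6.11 and 5.91 at ZT15, and 5.86 and 5.61 in Tim-Fbl at ZT3 and ZT15, so that both Tim-Fbl arrays lay below all 4 control arrays. Ir25a, the most widely used ionotropic co-receptor, was at 5.81, 5.65, 5.57 and 5.51 in controls and 5.58 and 5.60 in Tim-Fbl, which overlap. Orco stayed within a narrow range, at 5.12, 5.25, 5.05 and 5.18 in controls and 5.12 and 5.16 in Tim-Fbl. The other co-receptor genes were dimmer, with Ir76b, used by amine and taste receptors, at 4.79 to 4.96 and Ir93a, used in temperature and humidity sensing, at 4.14 to 4.50 over the 6 arrays. The carbon dioxide receptor pair, Gr21a and Gr63a, ranged from 4.19 to 4.49 and from 3.86 to 4.23.

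Of the tuning receptors over 5, Ir76a, a receptor for phenylethylamine in antennal coeloconic sensilla, was the only gene with a mean over 7. Its probe set carries the manufacturer's suffix for sequence shared between transcripts, and in the RefSeq table the gene overlaps CG14102, whose own probe set differed in the same directions as that of Ir76a, by 0.485 between times and 0.381 between strains, without passing. The humidity receptor genes Ir68a, for moist air, and Ir40a, for dry air, had signals of 5.16 to 5.69 and of 5.02 to 5.25. Among odorant receptor genes, Or43b and Or43a act in antennal neurons, while Or63a and Or1a are known chiefly from the larval olfactory system. Of the 10 measured genes listed as larval, 2 lay over 5, against 1 of 23 antennal basiconic, 2 of 11 antennal trichoid and intermediate and 0 of 7 maxillary palp receptor genes.

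The first comparison, ZT15 against ZT3 in controls, asks whether chemoreceptor transcripts differ between morning and early night. One gene passed, Or1a. Its signal was 4.64 and 4.40 on the control ZT3 arrays and 5.44 and 5.38 at ZT15, so the groups were separated by more than their own spread (4.52 ± 0.17 and 5.41 ± 0.040, SD, n = 2 each). The rise was 1.85-fold (log2 difference 0.89 ± 0.11 SE, limma adjusted p = 0.0285). Tim-Fbl went the same way, from 5.26 at ZT3 to 5.93 at ZT15, a difference of 0.67 without a replicate. Leaving out control ZT3 replicate 2 ended the call (0.76), and it held under the other 12 alternatives tried. These include the fits without a Tim-Fbl array, which cannot change the time contrast, because a lone array adds nothing to the spread. They also include the mean over a gene's probe sets, which leaves the values of Or1a unchanged because it has a single probe set.

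One call among 166 genes is 0.602%, where 0.703% of all probe sets were called in either direction and 0.314% were called higher. No gene passed as lower, against 0.389%. At an unadjusted p under 0.05, 2 genes were higher and 14 lower at ZT15, or 9.64% of the genes against 17.3% of all probe sets (7.25% lower). Of the 155 genes with a mean log2 of 5 or less, 13 were lower at that p and 0 higher. This is 8.39%, against 7.66% of the other probe sets of such means in either direction. Of all 8290 probe sets of such means, receptor genes included, 500 were lower and 136 higher at that p. The higher pair was Or1a and Ir76a. Ir76a was at 7.43 and 7.45 at ZT3 and 7.76 and 7.72 at ZT15 (difference 0.30 ± 0.086, adjusted p = 0.19), and in Tim-Fbl at 7.89 and 7.92. Of the lower genes only Ir68a, the moist-air receptor gene, had a mean over 5 in its higher group, with 5.69 and 5.59 at ZT3 against 5.16 and 5.36 at ZT15 (-0.38 ± 0.10, adjusted p = 0.184). Tim-Fbl had 5.63 and 5.54 for Ir68a.

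By role, none of the 5 co-receptor genes passed, with differences of -0.19 to 0.02 and a median of -0.06, and the carbon dioxide receptors differed by 0.07 (Gr21a) and -0.17 (Gr63a). None of 5 sugar receptors passed, where Gr43a, the fructose receptor, differed by -0.25 and Gr64f, a sugar co-receptor, by -0.27. None of 14 bitter receptors passed, within -0.18 to 0.07 (median -0.07). Among the antennal ionotropic receptors 0 of 8 passed. Their median was -0.11, against -0.01 for all probe sets and -0.06 for the other probe sets of mean log2 5 or less. Ir75a, which takes part in sensing acetic and related acids, differed by -0.49 ± 0.15 (limma adjusted p = 0.193). Of the 23 antennal basiconic and 7 maxillary palp odorant receptors none passed, with Or59b, an ester receptor gene, at -0.30 and Or42a, a palp receptor gene, at -0.25. None of the 11 trichoid and intermediate receptors (Or65a -0.24) or 10 taste-organ ionotropic receptors (Ir56c -0.31) passed.

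**Figure D2:**
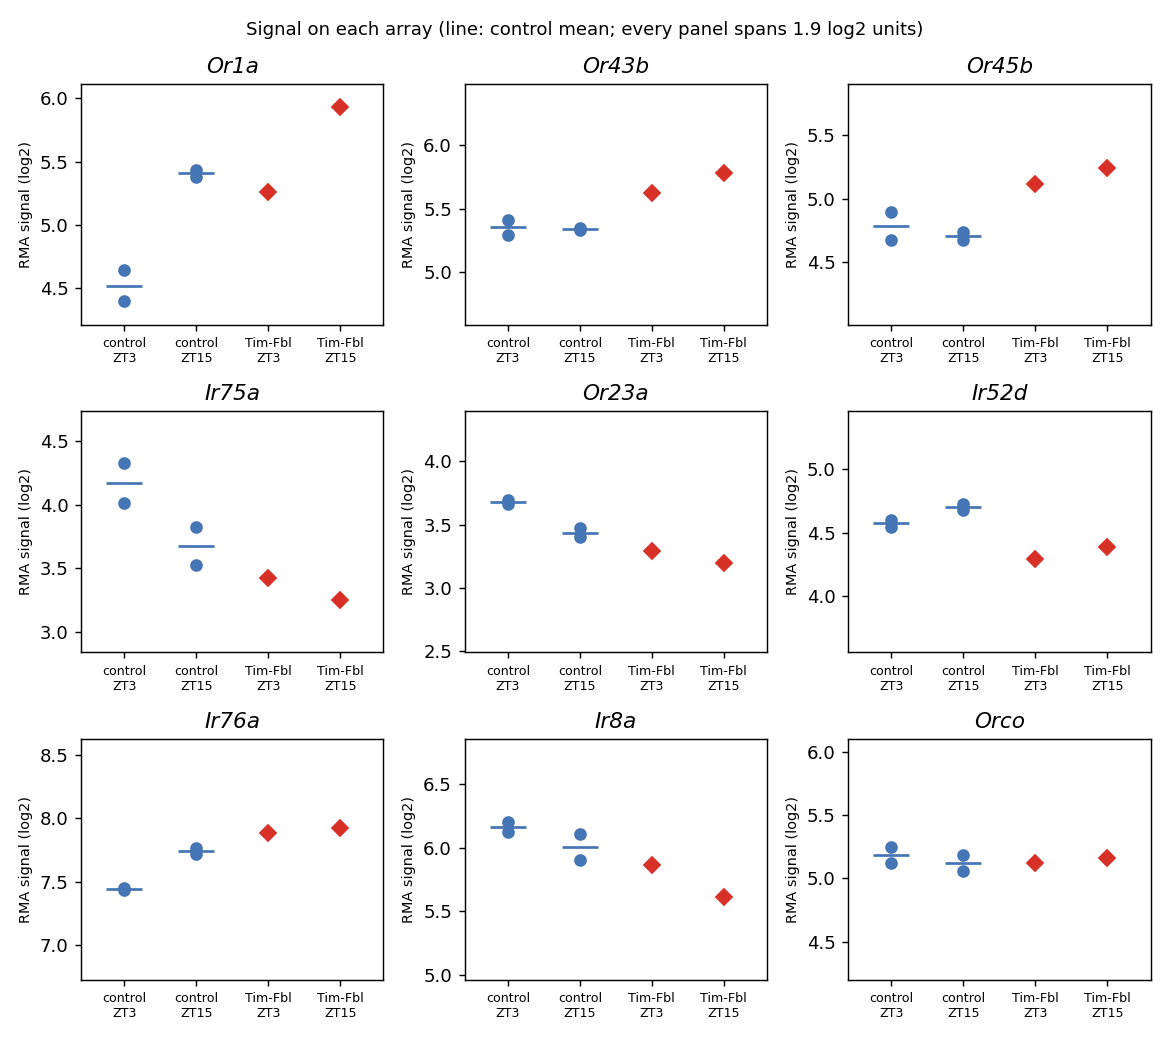
Signal (log2) on each array for the 6 receptor genes past the threshold in a test, and for Ir76a, Ir8a and Orco; circles are control arrays with a line at their mean, diamonds are the single Tim-Fbl arrays. Or1a is higher at ZT15 in both strains, and the Tim-Fbl arrays lie outside the control range for Or43b, Or45b, Ir75a, Or23a, Ir52d, Ir76a and Ir8a but within it for Orco.

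The second comparison, Tim-Fbl against control over both times, asks whether chemoreceptor transcripts differ between the strains. Of 166 genes 6 passed (3.61%, against 8.79% of all probe sets), 3 higher (1.81%, against 5.44%) and 3 lower (1.81%, against 3.35%). Over all probe sets 1021 were higher and 629 lower, against 1239 and 477 with array medians subtracted. Quantile normalization gave 689 and 593, and cyclic loess 770 and 581. At an unadjusted p under 0.05, 5 genes were higher and 32 lower, or 22.3% of the genes against 29.1% of all probe sets (14.8% higher and 14.3% lower). Of the 155 genes with a mean log2 of 5 or less, 2 were higher and 30 lower at that p. This is 20.6%, against 17.4% of the other probe sets of such means in either direction. Past the adjusted threshold the shares were 2.58% of these genes and 2.36% of those probe sets. Of all 8290 probe sets of such means, receptor genes included, 1230 were lower and 214 higher at an unadjusted p under 0.05. The 3 higher genes past the threshold were odorant receptor genes. Or1a rose 1.55-fold (log2 difference 0.63 ± 0.098 SE, limma adjusted p = 0.0119), and each Tim-Fbl array lay above both control arrays of its own time, though the Tim-Fbl ZT3 array (5.26) lay below the control ZT15 arrays. Or45b, another receptor gene known from larvae, was at 4.90, 4.68, 4.68 and 4.74 in controls and 5.12 and 5.24 in Tim-Fbl, a rise of 1.35-fold (0.43 ± 0.094, adjusted p = 0.0345). Or43b, an antennal receptor gene for fruit esters, was at 5.42, 5.30, 5.33 and 5.35 in controls and 5.63 and 5.78 in Tim-Fbl, a rise of 1.28-fold (0.35 ± 0.081, adjusted p = 0.0395). For Or45b and Or43b the strains did not overlap.

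The lower genes had a mean log2 under 5 in every group. Ir75a was at 4.33 and 4.01 in controls at ZT3, 3.82 and 3.53 at ZT15, and 3.42 and 3.25 in Tim-Fbl (log2 difference -0.59 ± 0.13 SE, adjusted p = 0.0389). Or23a, a gene of trichoid sensilla, was at 3.69, 3.66, 3.47 and 3.40 in controls and 3.29 and 3.20 in Tim-Fbl (-0.31 ± 0.077, adjusted p = 0.0484), under the lower quartile on every array. Ir52d, of the taste-organ ionotropic receptors, was at 4.61, 4.55, 4.73 and 4.68 in controls and 4.29 and 4.39 in Tim-Fbl (-0.30 ± 0.072, adjusted p = 0.0452). In all 3 genes both Tim-Fbl arrays lay below all control arrays.

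These calls differed in how they held under other settings. The 6 genes have a single probe set each, so the mean over a gene's probe sets left their values as they were. That alternative is counted in every tally below, though it altered only other probe sets in the fit. Or1a stayed past the threshold under 12 of 13 alternatives and was lost without the Tim-Fbl ZT3 array (0.53, adjusted p = 0.129). Or45b and Or43b kept their calls after median subtraction, quantile normalization and cyclic loess, and each held under 6 alternatives, of 12 for Or45b and 13 for Or43b. Or45b was lost without any array other than control ZT3 replicate 1 (differences 0.33 to 0.54), and Or43b without any of the 6 arrays (0.27 to 0.44). Ir75a held under 5 of 12 alternatives and was lost after quantile normalization (-0.52) and cyclic loess (-0.505) and without any array other than control ZT15 replicate 2 (-0.43 to -0.75). Or23a and Ir52d held under 2 of 12 each, and were lost after all 3 normalizations, at -0.24 to -0.28 and -0.20 to -0.27, and without any array (-0.24 to -0.39 and -0.28 to -0.32). When single control arrays were left out, the count of 6 became 1 to 2. The calls over all probe sets fell too, from 1650 to between 792 and 1255, with 2 residual degrees of freedom in place of 3. With the replicate number as a block the receptor count became 2, Or1a and Ir75a, beside 1212 of all probe sets. The losses in these fits were thus not confined to receptor genes. Leaving out a Tim-Fbl array leaves 1 array of that strain, so no count is given for those fits.

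Genomic neighbours on the same array were read beside the calls. In the RefSeq table Or1a overlaps CG3777, which differed between strains by 0.55 ± 0.15 (adjusted p = 0.0681) and between times by -0.49, opposite in sign to Or1a. Of the genes on either side of Or1a, CG12470 differed between strains by 0.28 (adjusted p = 0.104) and between times by 0.02, and CG32816 rose in Tim-Fbl by 1.11 ± 0.11 (adjusted p = 0.0025) and differed between times by 0.03. Or43b overlaps Cul1, a cullin gene, which differed between strains by -0.08, and Or45b overlaps an antisense RNA gene for which no probe set is named. Ir75a lies beside Cln3, which fell by 0.355 (adjusted p = 0.042), and beside Ir75b, a related receptor gene, which differed by -0.04. Apart from CG32816 and Cln3, no measured neighbour of the 6 called genes passed between strains. The part of neighbouring transcripts in the receptor signals was not tested.

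Among members that did not pass, Ir8a came closest (-0.35 ± 0.087, adjusted p = 0.0507). It was called after quantile normalization, cyclic loess, robust variances and with probe sets of mean log2 under 5 left out. The other co-receptors gave no such difference, at -0.01 for Orco, -0.04 for Ir25a, 0.05 for Ir76b and -0.06 for Ir93a, and the carbon dioxide receptors were at -0.04 and 0.00. Ir76a, at 7.89 and 7.92 in Tim-Fbl, lay above all 4 control arrays (0.31 ± 0.086, adjusted p = 0.0645). Ir84a, a receptor gene for food-derived aromatics, differed by -0.26, Or43a by -0.24 and Gr93a by -0.20, none of them past the threshold.

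The counts by role are read against the 5.44% of all probe sets called higher and the 3.35% called lower. By role, 1 of 8 antennal ionotropic receptors fell (Ir75a) and Ir31a differed by -0.34 without passing. The list median was -0.20, against -0.03 for all probe sets and -0.08 for the other probe sets of mean log2 5 or less. Of the 10 taste-organ ionotropic receptors 1 fell (Ir52d; list median -0.13), and of the 23 antennal basiconic receptors 1 rose (Or43b; list median -0.06). Of the 11 antennal trichoid and intermediate receptors 1 fell (Or23a; list median -0.10), while Or65b and Or47b, a receptor gene for fly-derived fatty acid odours, differed by -0.33 and -0.25 without passing. Of the 10 larval receptors 2 rose (list median -0.10), and Or94b differed by -0.29 (adjusted p = 0.0523). None of the 14 bitter receptors passed (list median -0.07), where Gr22e differed by -0.28 and Gr66a, the broad bitter receptor, by -0.24. None of the 5 sugar, 7 palp or 4 temperature and humidity receptors passed, with ranges of -0.16 to -0.05, -0.15 to 0.11 and -0.16 to 0.13. The 67 members in none of these lists held no call in any test, with strain differences of -0.34 to 0.23.

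Of 17 partner genes of chemosensory and other peripheral sensory neurons, 2 passed, both higher in Tim-Fbl, where 5.44% of all probe sets were called higher and 8.79% in either direction. The gene pain (painless), a TRP channel for noxious heat, was at 7.05, 6.80, 6.97 and 7.05 in controls and 7.64 and 7.61 in Tim-Fbl (0.66, adjusted p = 0.00847). Snmp2, of the sensory neuron membrane protein family, was at 7.30, 7.08, 7.09 and 7.10 in controls and 7.50 and 7.54 in Tim-Fbl (0.38, adjusted p = 0.0422). Its relative Snmp1, needed for pheromone responses, differed by 0.03, and acj6 and pdm3, factors that select receptor genes, by 0.11 and 0.14, without passing.

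**Figure D3:**
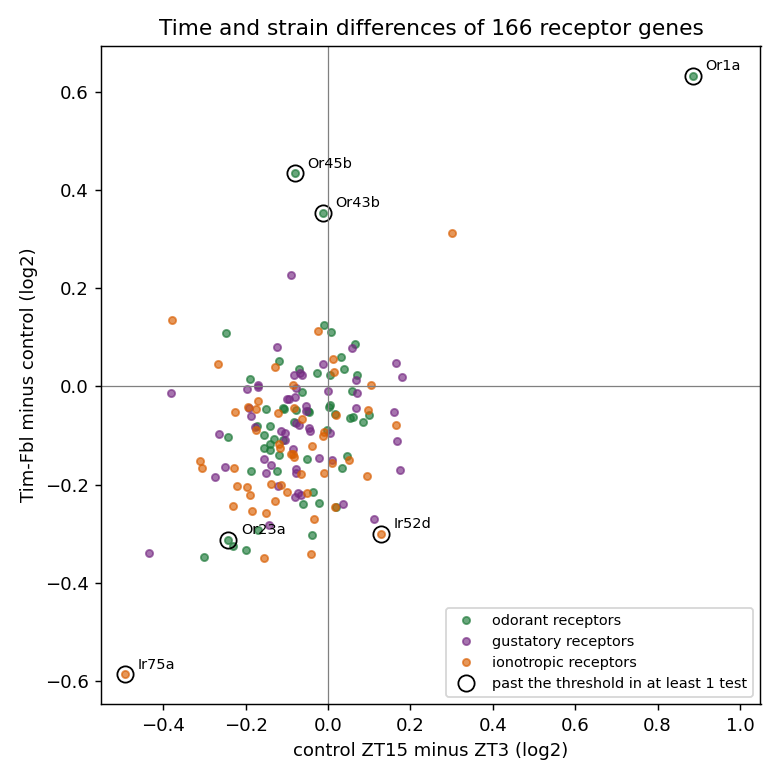
Log2 difference of each of the 166 receptor genes between ZT15 and ZT3 in controls (horizontal) and between Tim-Fbl and control (vertical), coloured by family, with the 6 genes past the threshold in at least 1 test circled. Or1a stands at 0.89 and 0.63, while most genes lie at or below 0 on both axes; both differences are computed with the same control arrays.

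Small negative differences were common among the receptor genes in both comparisons, and are described here beside those of equally dim probe sets. Between times 122 of 166 genes (73.5%) lay below 0, against 51.5% of all probe sets and 67.7% of the 8135 other probe sets with a mean log2 of 5 or less. Their median was -0.08, against -0.06 for the other dim probe sets and -0.01 for all. Between strains 131 genes (78.9%) lay below 0, against 55.5% and 76.1%, and the median was -0.09, against -0.08 and -0.03. The comparisons share the control arrays.

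Groups did not overlap for 68 genes lower at ZT15 (41.0%, where 25.6% of all probe sets and 31.5% of the other dim ones were such), and for 14 higher (8.43%, against 26.5% and 10.3%). For the strains these were 47 lower (28.3%, against 19.9% and 24.7%) and 4 higher (2.41%, against 16.5% and 3.76%). After quantile normalization or cyclic loess the receptor medians were -0.03 and -0.03 between times and -0.02 and -0.01 between strains, with 104 and 100, then 95 and 89, of 166 genes below 0.

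**Figure D4:**
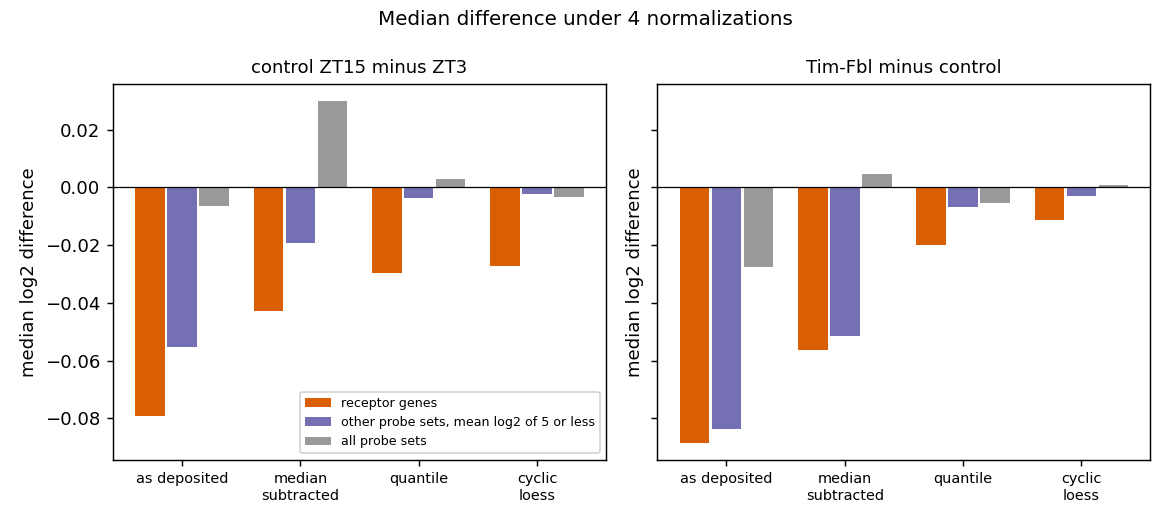
Median log2 difference of the receptor genes (orange), of the other probe sets with a mean log2 of 5 or less (purple) and of all probe sets (grey), for time in controls (left) and strain (right), as deposited and after 3 normalizations. The receptor median of -0.09 between strains as deposited is -0.01 after cyclic loess, and the other dim probe sets move likewise from -0.08 to -0.0031.

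Other measures moved along with the groups. The mean over the 8 antennal markers was 4.83 and 4.94 in controls at ZT3, and 4.66 and 4.55 at ZT15. In Tim-Fbl it was 4.96 at ZT3 and 4.88 at ZT15. It was thus lower at ZT15 in controls, and each Tim-Fbl array lay above both control arrays of its own time. In that list lush, an odorant-binding protein gene needed for pheromone sensing, fell at ZT15 by 1.11 in controls (limma adjusted p = 0.0254). In Tim-Fbl lush did not fall, at 6.18 at ZT3 and 6.41 at ZT15. No marker of the list passed between strains. The next largest time difference was that of Obp69a, at -0.66 without passing, and 2 of the 8 lay above 0. The mean over 3 muscle markers was 7.57 to 7.70 in controls and 8.02 and 8.21 in Tim-Fbl, with 1 marker higher past the threshold. That marker was Act88F, which differed by 1.31. Of the others, Mf differed by 0.22 without passing and TpnC4, at a mean of 2.99, by -0.10. The mean over 4 ovary markers was 5.38 to 5.59 in controls and 5.17 and 5.15 in Tim-Fbl, with 1 lower past the threshold. The 4 neuron markers had means of 7.88 and 7.82 in controls at ZT3, 8.07 and 8.18 at ZT15, and 8.13 and 8.29 in Tim-Fbl. All 4 lay above 0 between times, 3 of them at an unadjusted p under 0.05, and none passed in either comparison. The 5 photoreceptor markers had means of 12.95 and 12.87 at ZT3 and 13.05 and 13.11 at ZT15 in controls, and of 12.97 and 12.87 in Tim-Fbl, with no marker past the threshold. Of 4 glia markers 1 passed between strains, loco, which was higher in Tim-Fbl (0.39, adjusted p = 0.02), while the means over the list overlapped (10.905 to 11.082 in controls, 11.075 and 11.029 in Tim-Fbl). The 5 fat body markers held no call, with means of 13.9 to 14.2 in controls and 13.8 and 14.1 in Tim-Fbl. For 18S rRNA, control ZT15 replicate 2 (median signal 11.4) and both Tim-Fbl arrays (11.5 and 11.8) lay below the remaining controls (12.3 to 12.7). The excess of signal at the end over the start of the GAPDH transcript was 6.23 and 6.18 on the Tim-Fbl arrays, 6.34 on control ZT15 replicate 2 and 5.805 to 6.007 on the others. The same measure did not separate the arrays in this way for Act5C, at 5.646 and 5.488 in Tim-Fbl, 5.72 on control ZT15 replicate 2 and 5.284 to 5.549 on the others. For eIF4a it separated them as for GAPDH, at 4.619 and 4.387 in Tim-Fbl, 4.415 on control ZT15 replicate 2 and 4.177 to 4.301 on the others. The part of these in the receptor differences was not tested.

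The third comparison asks whether the time difference itself differed between strains. No receptor gene passed by limma, where 0.0373% of all probe sets did. At an unadjusted p under 0.05, 5 were higher and 1 lower, or 3.61% of the genes against 5.40% of all probe sets (3.29% higher and 2.12% lower). Of all 8290 probe sets with a mean log2 of 5 or less, 211 were higher and 83 lower at that p. All 6 receptor genes had such a mean, where the shares in either direction were 3.87% of the genes and 3.54% of the other probe sets. These were Or92a, a receptor gene for diacetyl (0.60 ± 0.18 SE), Ir7b (0.53), Gr64f (0.50), Or59b (0.46), Gr93c (0.44) and Or46a, a palp receptor gene (-0.53 ± 0.15), each with an adjusted p of 0.842. The other probe sets of Or46a, at means of 3.47 and 3.01 beside 3.53 for the one used, had interactions of 0.44 (unadjusted p = 0.0377, adjusted p = 0.842) and -0.07, so the sign for Or46a depended on the probe set. Each of these interactions rests on 1 Tim-Fbl array per time. Or1a, with time differences of 0.89 in controls and 0.67 in Tim-Fbl, had an interaction of -0.21 ± 0.19 (adjusted p = 0.86). Within Tim-Fbl the ZT15 minus ZT3 differences of the 166 genes ran from -0.48 to 0.67 with a median of -0.02, against -0.01 for all probe sets.

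For 12 genes the array carries several probe sets, and these could be set against each other. None of the 20 further probe sets passed in any of the 3 comparisons. For Gr39a, a bitter receptor gene with several transcript forms, the probe set used differed by -0.18 between times and the other 4 by 0.07 to 0.20. For Ir40a the second probe set had a mean of 3.62, against 5.16 for the one used, so the position of a receptor gene relative to 5 depends on the probe set. Between control replicates the SD, pooled over both times, of the receptor genes had a median of 0.079, against 0.091 over all probe sets, and the highest was 0.26. Of the receptor genes 155 had a mean log2 of 5 or less, and the SD of equally dim probe sets was not computed. The lower median thus does not show that receptor genes were measured more precisely.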

How the data were processed

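Expression was measured on 6 Affymetrix arrays, with biotin-labelled cRNA from 3 µg of total RNA per the labels' protocols. The deposited values are log2 signals, a scale read from their range of 2.53 to 14.6; RMA, with no version, is named in the submitters' processing notes. RMA in its usual form sets arrays to a common distribution, so a change shared by all transcripts would not be seen. Precision is limited by how few arrays there are.

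Of 18952 probe sets, 183 control probe sets were left out and 18769 tested; the annotation gave 1 symbol to 13647, several to 402 and none to 4720. All 166 receptor genes matched the RefSeq table, with 0 symbols changed. No coordinates are given, because no build is named for the arrays, and no sequences were printed. Unused value columns numbered 0.

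The deposited values entered limma 3.58.1 (R 4.3.3) without further scaling, and p-values of all 18769 probe sets were adjusted together by Benjamini-Hochberg, with a threshold of 0.05. Time and interaction came from 4 group means (2 residual degrees of freedom), strain from an additive model with time (3 degrees). Single Tim-Fbl arrays were assumed to vary like controls. Genes named were the co-receptors and carbon dioxide receptors, members past the threshold, those at an unadjusted p under 0.05 with a mean of at least 5 in the higher group, those over a mean of 7 or beside 5, partner genes that passed, and up to 3 per functional list; at an unadjusted p under 0.05 in the interaction, Gr93c was named after its value was seen, as were Or63a, loco, CG3777, CG12470, CG32816, CG14102, Cul1, Cln3, Ir75b, Snmp1, acj6 and pdm3. Members and lists were chosen with earlier results of these data known. Of the marker genes, 5 had no probe set naming them alone. The functions were tested on simulated arrays. Alternatives were 2 filters on dim probe sets, 3 normalizations, robust variances, the mean over a gene's probe sets, a block for the replicate number, and fits without single arrays. Figures were drawn with matplotlib 3.10.9.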

Additional observations from a re-analysis of the deposited data

How the results depend on the processing

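The count of receptor genes past the threshold between times was 1, and 0 with probe sets of mean log2 under 7 left out, which leaves only Ir76a; without single arrays it was 0 to 1. Between strains the count was 6 of 166, beside 1650 of all 18769 probe sets. With probe sets under 5 left out it was 3 of 11, beside 1626 of 10479. With those under 7 left out it was 0 of 1, beside 1196 of 7107. It was 2 with the replicate number as a block, beside 1212 of all probe sets. Without a single control array it was 1 to 2, beside 792 to 1255 of all probe sets. No interaction was called under the alternatives run, and the interaction could not be fitted without a Tim-Fbl array. The labels give a replicate number and do not say whether same-numbered control arrays belong together. Deviations of same-numbered control arrays correlated at 0.0381 over all probe sets and at 0.0909 over the receptor genes. The median over receptor genes between times was -0.013, 0.302, -0.0297 and -0.0273 with probe sets under 5 or under 7 left out, after quantile normalization and after cyclic loess. Between strains these were -0.0111, 0.313, -0.0198 and -0.0114. For the interaction the median was -0.268 with those under 7 left out and 0.00609 with array medians subtracted. The number over a mean of 5 was 10 to 12 without single arrays.

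Signs that reversed belonged to differences that had not passed. With the mean over a gene's probe sets, Gr39a was 0.0663 and Ir21a -0.0292 between times, and Gr93a -0.0151 in the interaction. Between strains Orco was 0.0212, 0.0533 and 0.0579 with array medians subtracted, after quantile normalization and after cyclic loess. After the last 2, Ir93a was 0.0364 and 0.0297 and Gr21a 0.0484 and 0.0452. Without single arrays, time differences ran from -0.129 to 0.000493 for Orco, -0.0561 to 0.0808 for Ir76b, -0.156 to 0.196 for Ir93a, -0.00792 to 0.142 for Gr21a, -0.0421 to 0.145 for Ir21a, -0.00788 to 0.179 for Or59c and -0.0156 to 0.0814 for Or65c. Strain differences ran from -0.0641 to 0.0419 for Orco, -0.15 to 0.0659 for Ir25a, -0.127 to 0.0242 for Ir93a, -0.152 to 0.0649 for Gr21a, -0.0587 to 0.0675 for Gr63a, -0.0104 to 0.28 for Ir68a, -0.307 to 0.0463 for Or71a and -0.018 to 0.235 for Or42a. Interactions ran from -0.198 to 0.00686 for Ir8a, -0.0684 to 0.284 for Ir93a, -0.179 to 0.115 for Gr63a and -0.0805 to 0.0164 for Or65c. The cause was not tested. Signal near the floor limits what can be seen for the 92 genes under the lower quartile on all arrays.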
